A study of Mus musculus with 18 samples.

Results

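The genes described here are 31 genes of the germ line and of the 2-cell embryo, chosen by name as a list of genes held to be silent in fibroblasts, among the 47937 gene IDs of the deposited count table. Of these, 25 are germline genes and 6 are 2-cell-stage genes, and all 31 were found in the table. The cells were mouse embryonic fibroblasts (MEF) with an inducible dCas9, a Cas9 that binds DNA without cutting it, aimed at the major satellite repeat (MSR), the tandem repeat of mouse pericentromeric heterochromatin. The study asked, per its design text, how changing transcription of this repeat affects repeats across the genome. The control line held dCas9-control, the repressor line dCas9-KM, labelled a transcriptional repressor, and the activator line dCas9-VPR, which carries a strong activation domain. Doxycycline was given to control cells at 10 ng/ml and to repressor cells at 100 ng/ml, both for 24 h, while activator cells received 10 ng/ml for only 6 h. The uninduced cells of each line were untreated, and all lines were grown in tet-free serum with hygromycin. Each of the 6 groups had 3 libraries, 18 in all. The labels do not say whether a line is 1 clone, nor whether replicate libraries stand for separate cultures. The p-values therefore measure the spread among these libraries only, and that spread may be technical. The effector, the time and the dose cannot be told apart where the lines are compared, because the control line was not induced for 6 h or at 100 ng/ml.

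Germline genes encode the proteins of meiosis, of the piRNA pathway and of sperm formation. In most somatic cells many of them are kept silent by DNA methylation at CpG-rich promoters and by repressor complexes such as the E2F6 and MGA form of Polycomb. The synaptonemal complex holds homologous chromosomes together in meiosis. The piRNA pathway uses small RNAs bound to PIWI proteins to silence transposons in germ cells. The 2-cell-stage genes, such as the Zscan4 family, are transcribed in a short burst when the embryonic genome is first activated.

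The libraries held 14928765 to 25262912 counts, and 22641 to 23420 genes were detected in the induced activator libraries, beside 20107 to 21331 in the other 15. The cells carried the fibroblast label: the 13 fibroblast markers summed to between 20900 and 26800 CPM (counts scaled to a common library size) in every library, although Thy1 had 1 count in all. Single markers moved. Of 12 tested with edgeR, 8 were called higher and 3 lower in the activator induction, beside 75.3% of all genes called, a split that changed with the scaling. Pdgfra and Pdgfrb fell by 1.14 each on the log2 scale. In the repressor induction 0 were called higher and 11 lower, beside 9.81% of all genes called. The 7 embryonic stem cell markers summed to at most 1.52 CPM, with Pou5f1 at 0 throughout, and the spermatid markers Prm1, Tnp1 and Tnp2 were at 0. The target could be followed in Gm26870, a gene model whose transcript matches itself best at a shift of 234 bases. Its mean level was 2.70 CPM ± 0.604 (SD, n = 3) in the uninduced and 762 CPM ± 100 (SD, n = 3) in the induced activator libraries, against 0 to 0.029 CPM in the means of the other 4 groups.

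Most of the 31 genes were at or near 0 before induction, and fewest were at 0 in the induced activator cells. Over the 3 libraries of a group, 12 of the 31 had no count in the uninduced control, 17 in the induced control, 14 in the uninduced repressor, 17 in the induced repressor, 15 in the uninduced activator and 7 in the induced activator cells. A count of 0 over a group allows a level of up to 3 counts, which is 0.045 to 0.0569 CPM, and this limit covers counting error only. In single libraries 18 to 20 of the 31 genes had a count in induced activator cells, against 8 to 14 in the other 15 libraries, so these ranges did not overlap. Among the germline genes 16 to 18 of 25 had a count in an induced activator library, against 6 to 12 elsewhere. For the 2-cell-stage genes the ranges overlapped, with 0 to 4 of 6 in induced activator libraries and 1 to 5 elsewhere. The share of all protein-coding genes with a count moved the same way, from 62.4 to 65.0% in the other libraries to 68.2 to 69.4%, and its part in the result was not tested. These are bulk samples, in which fewer expressing cells and less RNA per cell cannot be told apart.

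**Figure D1:**
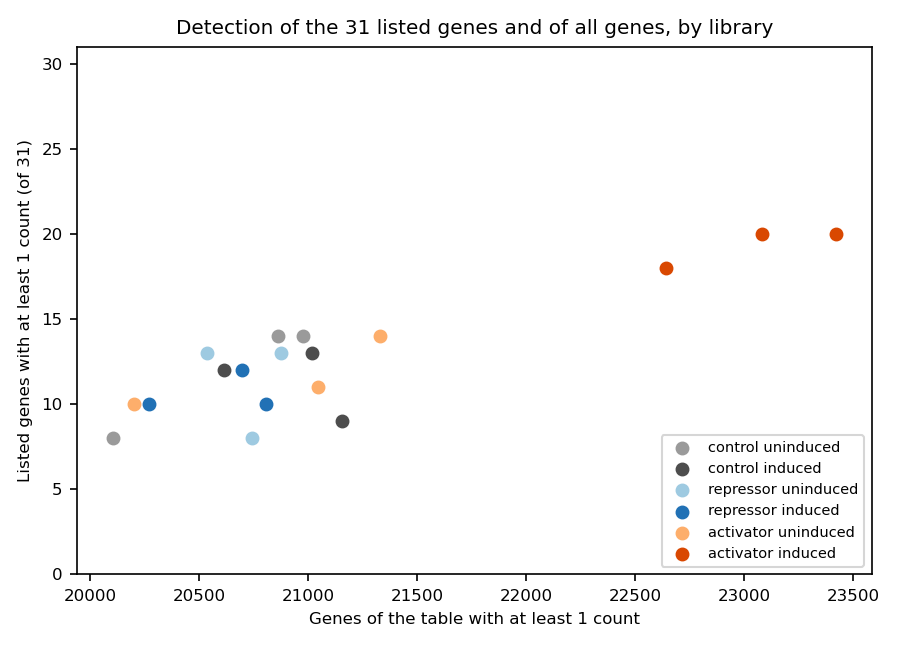
Number of the 31 listed genes with at least 1 count (vertical axis) against the number of all genes with at least 1 count (horizontal axis), 1 point per library, coloured by group. The 3 induced activator libraries stand apart on both axes, with 18 to 20 listed genes and 22641 to 23420 genes in all.

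A gene was said to appear on induction when it had no count in the 3 uninduced libraries of a line and at least 3 counts, in at least 2 libraries, after induction. In the activator line 7 of the 15 genes at 0 appeared: Syce1, Tex11, Hormad1, Sycp1, Slc25a31, Stk31 and Tdrd9, all of them germline genes. Among all genes of the table at 0 in the uninduced activator libraries 6.72% appeared, and among protein-coding genes 9.5%. In the repressor line 1 of 14 genes appeared, Tdrd1, beside 0.732% of all and 1.22% of protein-coding genes. In the control line 0 of 12 appeared, beside 0.873% and 1.54%. Of the genes listed as 2-cell-stage, Dppa5a and Tcstv3 were at 0 in the uninduced activator line, and both failed the rule, with 1 and 0 counts after induction. Dppa5a is counted in this list as a gene of early embryos. Mael, Asz1, Piwil1 and Tex101 had no count in any of the 18 libraries. Mael and Asz1 act in germ granules, Piwil1 is the PIWI protein of late meiotic cells and Tex101 is a sperm surface protein.

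**Figure D2:**
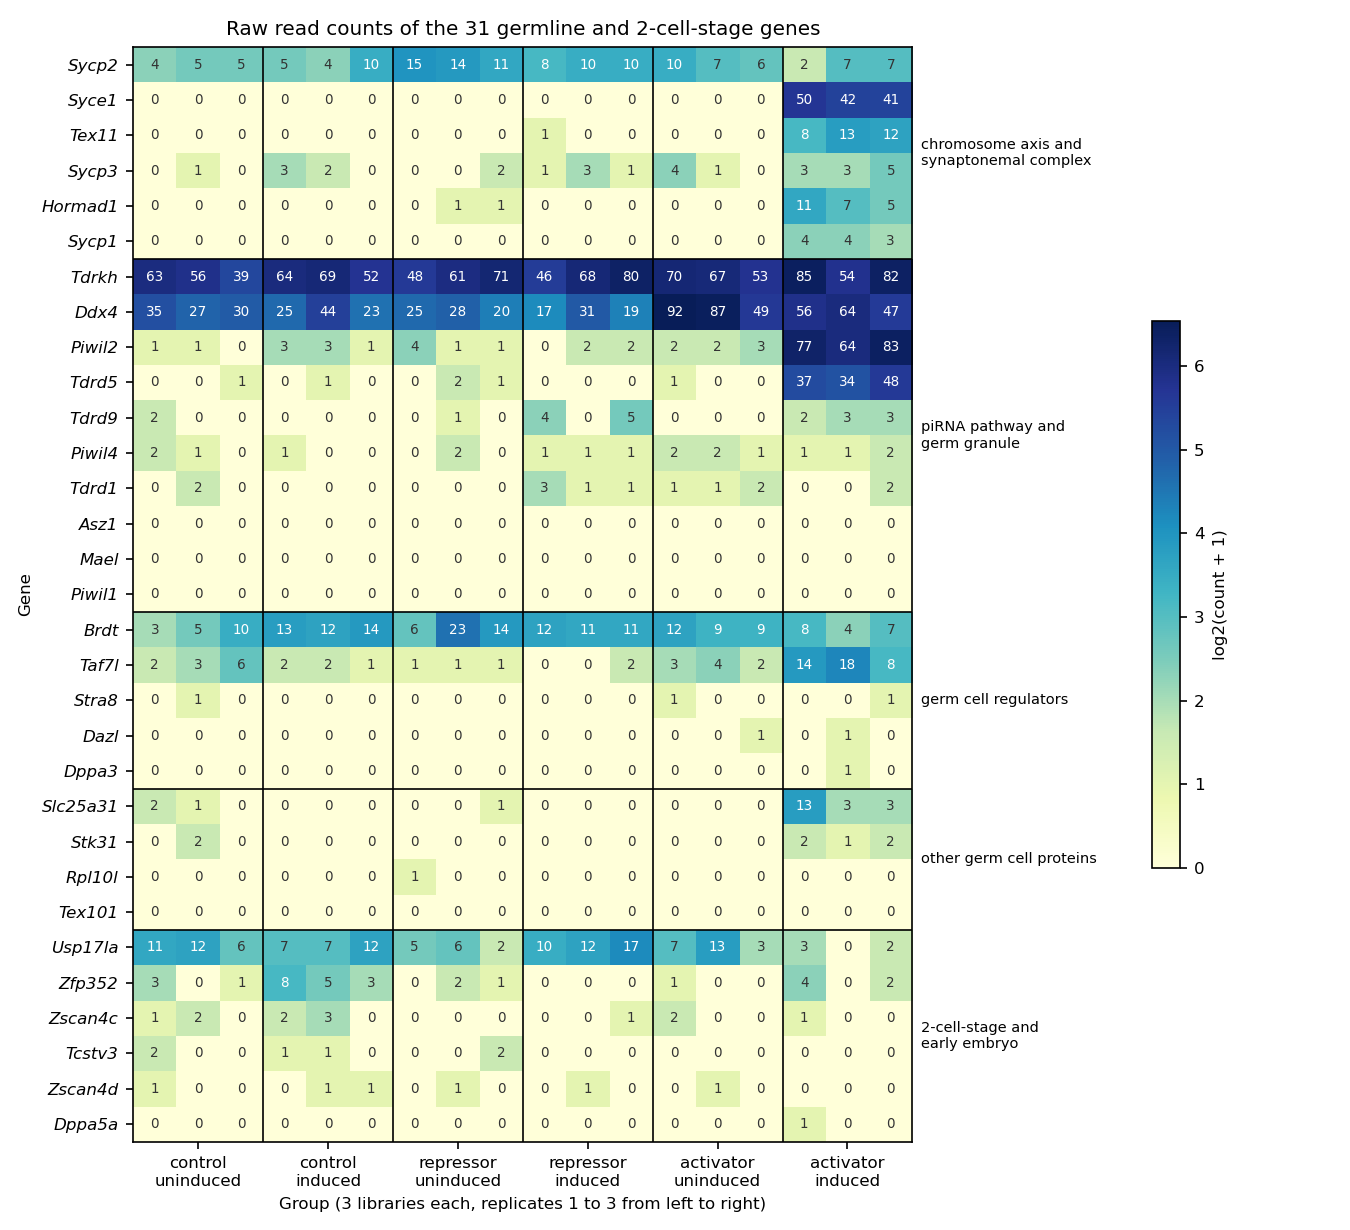
Raw read count of each of the 31 genes (rows, grouped by role) in each of the 18 libraries (columns, 3 per group); the number is the count and the colour its log2(count + 1). The counts of Syce1, Tex11, Hormad1 and Sycp1 are in the 3 induced activator columns, apart from 1 count of Tex11 and 2 of Hormad1 in the repressor line.

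The promoters of 5 of the genes that appeared are shown here because silencing of germline genes acts at their start sites. RefSeq windows of 250 bases before to 50 bases after the start (build GRCm38.p6) were matched by symbol for 26 of the 31 genes, and Piwil2, Tex11, Dppa3, Dppa5a and Tcstv3 had none. The window of Slc25a31 is not printed because the part before its start reaches into the annotated gene. Those of some other genes, among them Tdrd5 and Stra8, do so too. All these windows are kept in the motif and CpG counts below. Printed 5′ to 3′ on the gene's strand are the 250 bases before the start for Hormad1 (chr3:95559427-95559676, plus strand), Sycp1 (chr3:102936101-102936350, minus), Tdrd9 (chr12:111971309-111971558, plus), Stk31 (chr6:49395354-49395603, plus) and Syce1 (chr7:140787855-140788104, minus). Capitals mark the E-box CACGTG, the core motif of MAX partners such as MGA, and TCCCGC or its complement GCGGGA, a core E2F motif.
Hormad1: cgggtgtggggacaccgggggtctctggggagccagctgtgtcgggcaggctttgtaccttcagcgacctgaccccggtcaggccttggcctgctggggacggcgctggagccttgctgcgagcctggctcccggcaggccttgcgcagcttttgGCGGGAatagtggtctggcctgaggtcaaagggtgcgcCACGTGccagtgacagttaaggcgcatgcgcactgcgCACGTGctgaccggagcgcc
Sycp1: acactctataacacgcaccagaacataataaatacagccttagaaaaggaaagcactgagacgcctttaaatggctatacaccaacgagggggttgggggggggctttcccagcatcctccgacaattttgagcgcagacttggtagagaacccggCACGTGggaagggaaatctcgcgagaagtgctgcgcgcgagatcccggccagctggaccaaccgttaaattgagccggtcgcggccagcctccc
Tdrd9: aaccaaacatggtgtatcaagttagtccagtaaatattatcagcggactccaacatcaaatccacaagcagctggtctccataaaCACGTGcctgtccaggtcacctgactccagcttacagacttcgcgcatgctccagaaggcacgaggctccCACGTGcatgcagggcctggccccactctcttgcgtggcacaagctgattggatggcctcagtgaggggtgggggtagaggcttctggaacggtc
Stk31: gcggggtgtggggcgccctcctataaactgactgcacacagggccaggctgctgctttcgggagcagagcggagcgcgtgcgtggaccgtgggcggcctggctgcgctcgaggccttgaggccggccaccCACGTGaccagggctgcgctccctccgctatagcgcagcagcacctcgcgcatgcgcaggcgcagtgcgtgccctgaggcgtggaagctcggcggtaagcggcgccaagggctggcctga
Syce1: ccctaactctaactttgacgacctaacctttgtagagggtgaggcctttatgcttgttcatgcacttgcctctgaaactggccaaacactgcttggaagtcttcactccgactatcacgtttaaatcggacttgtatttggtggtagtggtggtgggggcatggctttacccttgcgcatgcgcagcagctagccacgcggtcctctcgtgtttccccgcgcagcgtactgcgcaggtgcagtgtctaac

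In these sequences CACGTG lies 57 and 20 bases before the start in Hormad1, 94 bases before it in Sycp1, 165 and 95 bases before it in Tdrd9 and 120 bases before it in Stk31. GCGGGA lies 95 bases before the Hormad1 start. Syce1 had neither motif in its window. CACGTG, searched on both strands and overlapping no TCCCGC match, was in a window of 12 of the 26 genes, all 12 among the 22 germline genes. Counted by window, CACGTG was in 15 of the 31 windows of these 26 genes, beside 7.15% of the 32851 windows of the RefSeq table. It was in 5 of the 6 appearing genes with a window and in 2 of the 5 that were at 0 in the uninduced activator line and did not appear, Mael and Piwil1. TCCCGC or its complement was in 8 of the 26 genes, all germline, and in 9 of their 31 windows, beside 20% of all windows. It was in 3 of the 6 appearing genes with a window and in 2 of the 5 at 0 that did not appear. Both motifs hold a CpG, and the windows compared were not matched for CpG content. A link of either motif with appearance was not tested. Taking for each gene its window with the most CpG, the germline genes had 10 to 48 CpG (median 20) and the 2-cell-stage genes 1 to 4 (median 2.5). Other windows of Piwil4 and Tdrd1 held 0 and 3. The median of all windows, with every window counted, was 7, with quartiles of 3 and 20. A motif match is a description of the letters and not a bound site.

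Of the synaptonemal complex and chromosome axis genes, 4 appeared with the activator. Syce1, a central element protein of the complex, had no count in 15 libraries and 50, 42 and 41 counts in the induced activator libraries. No other gene of the 31 went from none to so many, and its mean level was 2.55 CPM ± 0.393 (SD, n = 3), at least 56.1-fold above the uninduced group. All such folds are against the floor of 3 counts per group. They take the induced counts as exact, so with few induced counts they are not firm minima. Per kilobase of exon the induced level of Syce1 was 1.75 CPM, above 34.9% of the 16216 genes tested. The edgeR quasi-likelihood test gave a log2 fold change of 8.67 (SE 0.656, adjusted p = 5.62e-20), a size that depends on the prior count because the uninduced group was at 0.

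Tex11, an X-linked gene of meiotic crossing over, had 8, 13 and 12 counts in the induced activator libraries, none in the uninduced ones, and 1 count in all the other groups. Its level was at least 13.9-fold higher after induction. Hormad1, an axis protein that marks unsynapsed chromosomes, had 11, 7 and 5 counts after activator induction and 0 before, at least 9.70-fold higher, and 1 count in each of 2 uninduced repressor libraries. Sycp1, the transverse filament of the complex, had 4, 4 and 3 counts after activator induction and 0 in the other 15 libraries, at least 4.64-fold higher. These 3 genes did not pass the filter on low counts, so the main test gave no value for them. In the fit without that filter each was called (adjusted p of 4.46e-09, 1.40e-06 and 0.00146, edgeR quasi-likelihood test). DESeq2 called Tex11 and Hormad1 but not Sycp1 (DESeq2 adjusted p = 0.112). All 3 were singled out here by the same counts, 0 before and some after induction, so these calls are no support.

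The axis proteins Sycp2 and Sycp3 were not called. Sycp2 had 10, 7 and 6 counts before and 2, 7 and 7 after activator induction, a log2 change of -0.18 (SE 0.480, adjusted p = 0.741). It was counted in every library of the series, with 15, 14 and 11 counts in the uninduced repressor and 4, 5 and 5 in the uninduced control libraries. That log2 difference of 1.455 (SE 0.435, edgeR adjusted p = 0.0654) did not pass the test. Sycp3 had 4, 1 and 0 counts before and 3, 3 and 5 after activator induction, a ratio of 2.78 with an exact interval of 0.892 to 10.2 at 95%, which covers counting error only and spans 1. Scaled to library size, its 3 induced libraries lay above the 3 uninduced ones. Sycp3 lies over Chpt1 on the opposite strand, which had 2416 and 2503 counts, and the strand setting of the counting is not given in the sources used here.

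**Figure D3:**
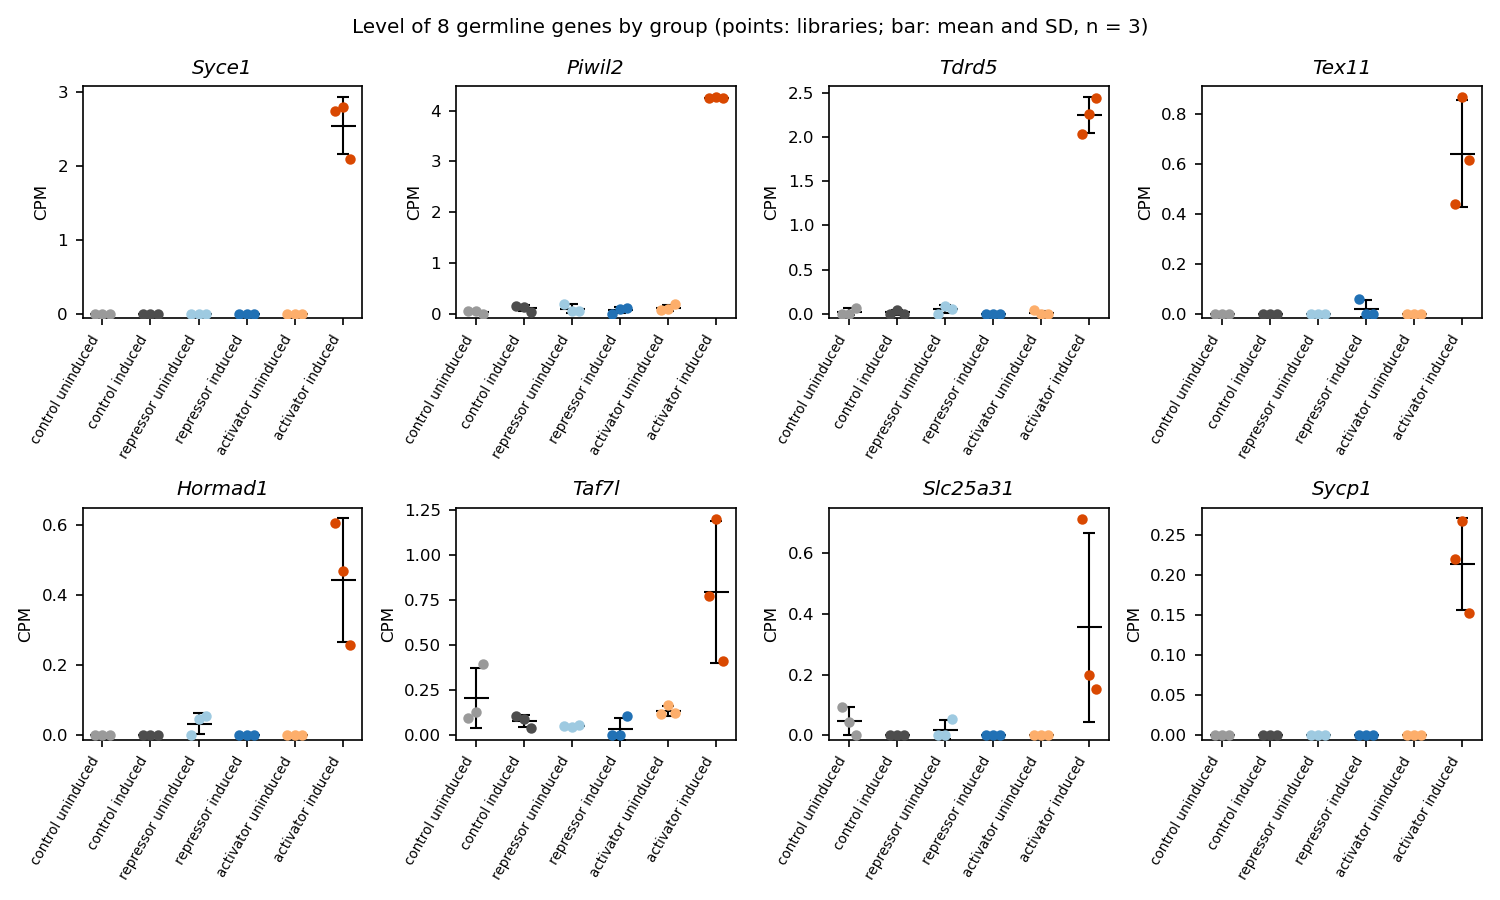
Level in CPM of 8 germline genes by group; points are libraries, the line and bar are mean and SD (n = 3), and each panel has its own scale. In each panel every induced activator library lies above every library of the other groups.

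Of the piRNA and germ granule genes, Piwil2 and Tdrd5 had the largest gains, Tdrkh and Ddx4 were counted throughout, and the other 6 had at most 5 counts in any library. Piwil2, the PIWI protein of early germ cells (MILI), had 2, 2 and 3 counts before and 77, 64 and 83 counts after activator induction. Its induced level of 4.25 CPM ± 0.0183 (SD, n = 3) was 0.804 CPM per kilobase, above 21.5% of the tested genes, and it rose by a log2 fold change of 5.26 (SE 0.335, adjusted p = 3.45e-25). In the control line Piwil2 went from 1, 1 and 0 to 3, 3 and 1 counts. Tdrd5, a Tudor protein of germ granules that is needed to silence L1 elements, had 1, 0 and 0 counts before and 37, 34 and 48 after activator induction, or 2.25 CPM ± 0.210 (SD, n = 3). The ratio of its counts was 151 with an exact 95% interval of 26.5 to 6000, and the log2 fold change was 6.74 (SE 0.552, adjusted p = 4.44e-19). For both genes the induced activator libraries lay far above all other 15 libraries, none of which exceeded 4 counts.

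The change on induction was larger in the activator than in the control line by 3.76 on the log2 scale for Piwil2 (SE 1.62, adjusted p = 0.0364) and by 6.85 for Tdrd5 (SE 2.76, adjusted p = 0.0256), the only 2 of the 8 genes tested with an edgeR call for this difference, beside 63.7% of all genes. Both genes passed the filter only through the induced activator libraries, so these calls are no support. The Piwil2 call was lost in 8 of 28 alternative settings, with adjusted p up to 0.173. The Tdrd5 call was lost without the third uninduced control library (adjusted p = 0.958), which held 1 of the 2 Tdrd5 counts of that line. For Syce1, with no count in the control line, edgeR gave no usable standard error for this difference, and DESeq2 gave 8.44 (SE 2.16, adjusted p = 0.000337). Syce1 had counts only in the induced activator libraries, so the DESeq2 call is no support either.

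Tdrd9, an RNA helicase of the piRNA pathway, had 2, 3 and 3 counts after activator induction and 0 before, 3.37 times the floor. It also had 4, 0 and 5 counts in the induced repressor libraries against 0, 1 and 0, a ratio of 9.92 with an exact 95% interval of 1.37 to 435, with overlapping libraries. Tdrd1, which binds PIWI proteins, was the gene that appeared in the repressor line, with 3, 1 and 1 counts, 1.84 times the floor. In the activator line Tdrd1 had 1, 1 and 2 counts before and 0, 0 and 2 after induction. Piwil4, the nuclear PIWI protein of fetal male germ cells (MIWI2), had 5 counts before and 4 after activator induction and 1 to 3 counts in each of the other 4 groups.

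Tdrkh and Ddx4 were counted in every library before induction, against the description of the list as silent. Tdrkh, a Tudor protein at mitochondria that takes part in piRNA trimming, had 70, 67 and 53 counts before and 85, 54 and 82 after activator induction. Scaled to library size, 2.89 CPM ± 0.288 became 4.16 CPM ± 0.537 (SD, n = 3) without overlap, a log2 fold change of 0.55 (SE 0.163, adjusted p = 0.00181). This call was lost with total-count scaling, and with scaling to mitochondrially encoded genes the change was -0.19 (adjusted p = 0.245). Oaz3, a spermatid gene that lies over Tdrkh on the opposite strand, had 3 counts before and 36 after, and how the counting treated strand is not known here.

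Ddx4, the helicase of germ granules also called Vasa, was called between the uninduced lines. It had 35, 27 and 30 counts in the uninduced control and 92, 87 and 49 in the uninduced activator libraries, or 1.59 CPM ± 0.399 against 3.37 CPM ± 0.340 (SD, n = 3). Every uninduced activator library was above every control library, with a log2 difference of 1.14 (SE 0.200, adjusted p = 6.54e-06), the only call among the 8 genes tested, beside 19.5% of all genes. Its level did not pass the test on activator induction, with 56, 64 and 47 counts after it and a log2 change of -0.10 (SE 0.176, adjusted p = 0.614), although scaling to mitochondrially encoded genes gave -0.84 (adjusted p = 1.13e-06).

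**Figure D4:**
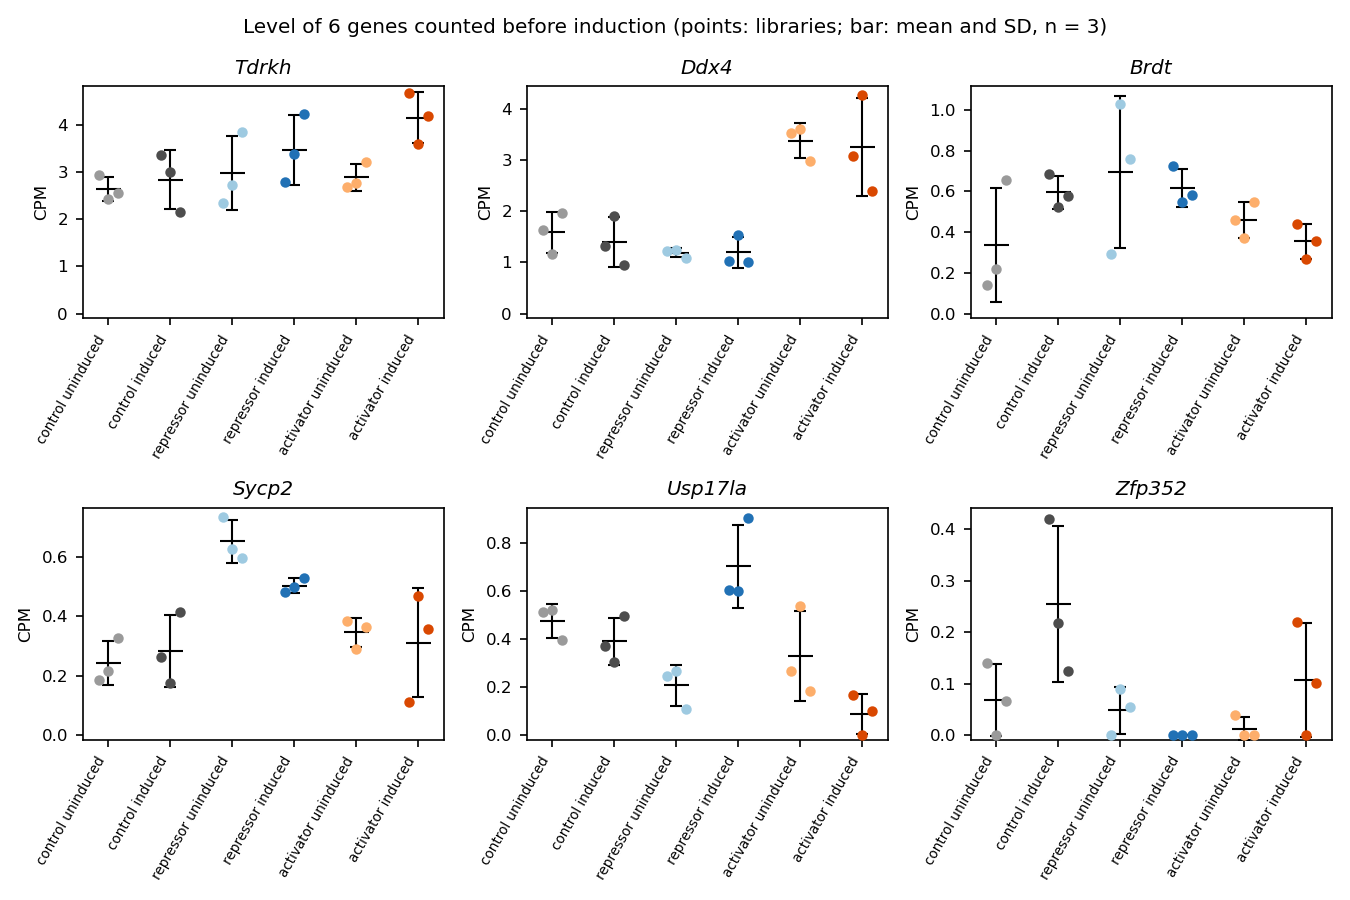
Level in CPM of 6 genes with counts before induction, by group; points are libraries, the line and bar are mean and SD (n = 3), and each panel has its own scale. Ddx4 is higher in both activator groups, Usp17la is highest in the induced repressor libraries, and Zfp352 is between 0 and 0.42 CPM in all of them.

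Among the regulators of germ cell transcription, Taf7l had a gain. Taf7l, an X-linked TFIID subunit of spermatocytes, had 3, 4 and 2 counts before and 14, 18 and 8 after activator induction, and between 0 and 6 in the other libraries. The ratio was 5.62 with an exact 95% interval of 2.69 to 13.2, and the fit without a filter called it (log2 fold change 2.41, SE 0.523, adjusted p = 1.37e-05, edgeR). Brdt, a testis bromodomain protein, was counted in all 18 libraries, with 12, 9 and 9 counts before and 8, 4 and 7 after activator induction and a log2 change of -0.32 (SE 0.457, adjusted p = 0.532). In the control line Brdt had 3, 5 and 10 counts before and 13, 12 and 14 after, the 1 gene of the 8 tested with an unadjusted p under 0.05 there, and no gene passed the adjusted test. Stra8, the retinoic acid responsive gene of meiotic entry, had 3 counts in the series, Dazl, an RNA-binding protein of germ cells, had 2 and Dppa3, a maternal and germ cell chromatin protein, had 1.

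Of the remaining germline genes, Slc25a31, the ATP/ADP carrier of sperm mitochondria, had 13, 3 and 3 counts after activator induction and 0 before, at least 8.01-fold higher, with most of the counts in 1 library. It had 3 counts in the uninduced control and 1 in the uninduced repressor libraries. Stk31, a testis kinase-like protein with a Tudor domain, had 2, 1 and 2 counts after activator induction and 0 before, 2.11 times the floor. It also had 2 counts in an uninduced control library. Rpl10l, the retrogene of a ribosomal protein used in male meiosis, had 1 count in the series.

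The 2-cell-stage genes gave no case of appearance, and Usp17la was the 1 of the 6 with enough counts to be tested. Usp17la, a deubiquitinase, had 7, 13 and 3 counts before and 3, 0 and 2 after activator induction and fell by 1.79 on the log2 scale (SE 0.647, adjusted p = 0.0101). It had 5, 6 and 2 counts before and 10, 12 and 17 after repressor induction and rose by 1.70 (SE 0.454, adjusted p = 0.00668). In the control line it had 11, 12 and 6 counts before and 7, 7 and 12 after. The libraries did not overlap in the activator or the repressor line, and they overlapped in the control line. The difference in change from the control line was -1.495 for the activator (SE 0.783, adjusted p = 0.0882) and 2.00 for the repressor (SE 0.622, adjusted p = 0.0635), and neither passed the test. The activator call was lost with DESeq2 and without the second library of either activator group (adjusted p up to 0.138), and the repressor call with DESeq2 and without the third library of either repressor group (adjusted p up to 0.0747). Usp17la belongs to a family of near-identical copies, so its counts are uncertain.

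Zfp352, a zinc finger gene of the 2-cell embryo, had 3, 0 and 1 counts before and 8, 5 and 3 after control induction, 0, 2 and 1 before and none after repressor induction, and 1, 0 and 0 before and 4, 0 and 2 after activator induction. Induced and uninduced libraries overlapped in each line, and the gene did not pass the filter. Zscan4c and Zscan4d, which act in telomere elongation of embryonic stem cells and are close copies of each other, had 12 and 6 counts in the series. Tcstv3 had 6, of which none were in the activator line, and Dppa5a, an RNA-binding protein of early embryos, had 1.

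Counted over the list, 8 of the 31 genes passed the filter, and Syce1, Piwil2 and Tdrd5 passed it only through the induced activator libraries. In the activator induction 4 were called higher (Syce1, Piwil2, Tdrd5 and Tdrkh) and 1 lower (Usp17la), beside 75.3% of all tested genes called, 38.2% higher and 37.2% lower. Without the filter 11 of 27 genes with a count were called higher and 1 lower, beside 24.8% and 21.4% of all genes. Induced libraries lay wholly above uninduced ones for 12 of the 25 genes with a count in the activator line, beside 30.2% of all genes. In the repressor line this held for 2 of 20, beside 10.1%, and in the control line for 0 of 19, beside 6.29%. The repressor induction called 1 of 8, beside 9.81% of all genes. The control induction called 0 by edgeR, with 1 gene at an unadjusted p under 0.05, beside 0.463%, limma-voom also called 0, and DESeq2 left none of the 31 to test in that comparison. The difference between repressor and control induction gave 0 calls of 8 by edgeR, with 2 genes at an unadjusted p under 0.05, and 1 call by limma-voom, beside 2.73% of all genes called by edgeR. The uninduced repressor and control lines gave 0 calls of 8 by edgeR, with 3 genes at an unadjusted p under 0.05, and 0 by limma-voom, beside 1.56% of all genes called by edgeR.

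The nearest protein-coding neighbours were listed for 14 of the genes, 28 neighbours in all. Tdrd5, Stk31 and Tdrd9 were not among these 14. Of the 19 neighbours tested in the activator induction 8 were called higher and 8 lower, near the 75.3% called among all tested genes. Ctss, a lysosomal protease gene that lies 3274 bases before Hormad1 on the same strand, had 1 count before and 99 after induction. Its log2 fold change was 6.48 (edgeR adjusted p = 5.90e-17). Golph3l on the other side had 954 and 864 counts, which scaled to library size was a rise of 0.19 (edgeR adjusted p = 0.0221). Zfp941, 19597 bases before Syce1 on the same strand, had 87 and 631 counts and rose by 3.20 (adjusted p = 2.44e-34), while Cyp2e1, 2242 bases beyond the end of Syce1, stayed at 0. Slc7a3, an amino acid transporter gene 19543 bases before Tex11 on the same strand, had 37 and 289 counts and rose by 3.29 (edgeR adjusted p = 7.41e-24). Dlg3, on the other side of Tex11, had 945 and 1042 counts and rose by 0.48 (edgeR adjusted p = 2.41e-09). Nr1h5, 3558 bases before Sycp1 on the same strand, had 1 and 20 counts, and Drp2, beside Taf7l on the opposite strand, had 226 and 847. Piwil2 differed from these, since both of its protein-coding neighbours fell, Polr3d by 0.67 and Slc39a14 by 0.91 on the log2 scale. Beside Slc25a31, which appeared, Intu was not called (0.19, edgeR adjusted p = 0.0837) and Hspa4l rose by only 0.145 (edgeR adjusted p = 0.0119). Beside Sycp2, which was not called, Phactr3 had 0 and 42 counts and Ppp1r3d fell by 1.03 (edgeR adjusted p = 0.000503). The part of the neighbours in the counts of the germline genes was not tested.

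**Figure D5:**
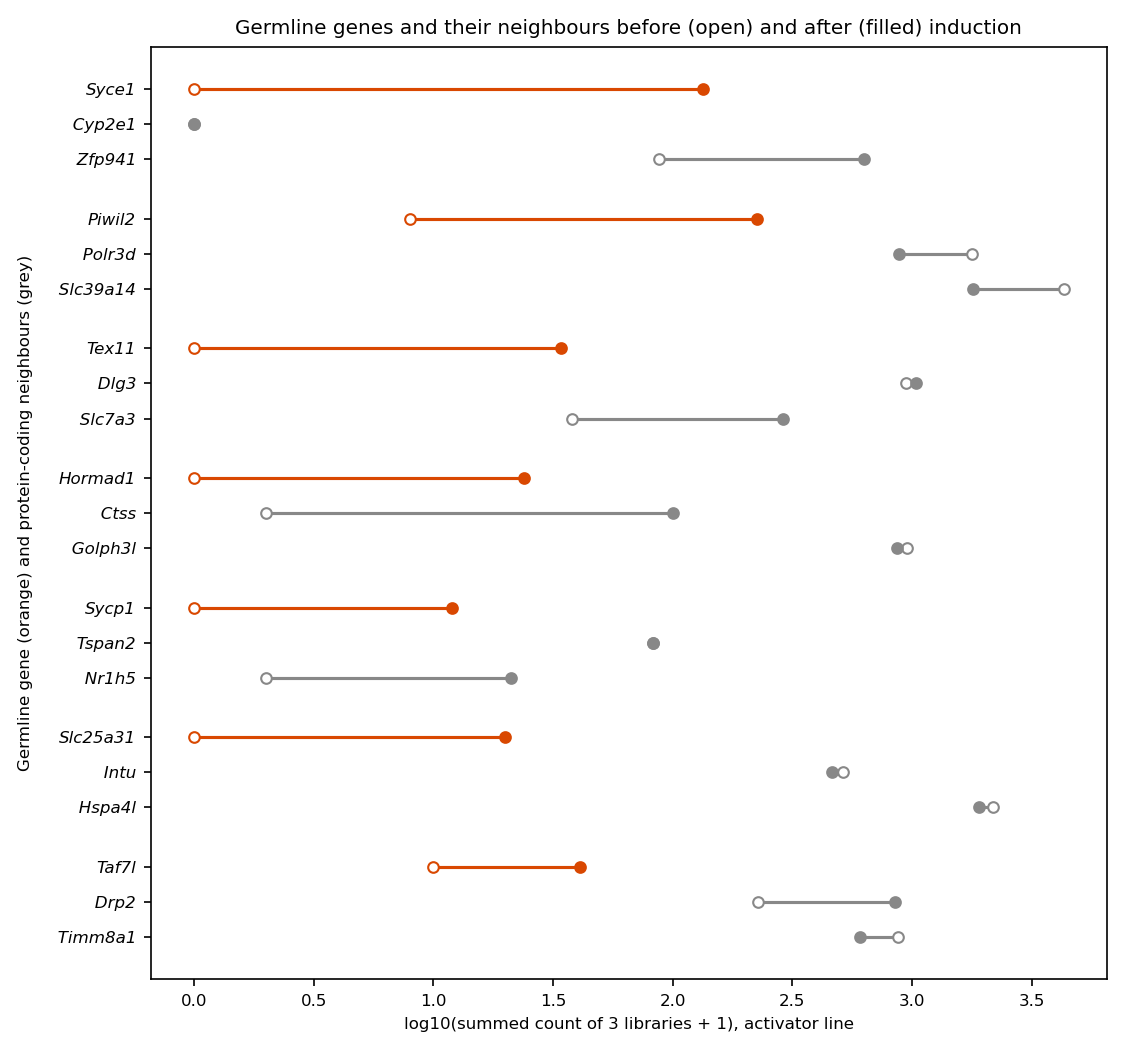
Summed count of 3 libraries in the activator line before (open) and after (filled) induction, as log10(count + 1), for 7 germline genes (orange) and the nearest protein-coding gene on each side (grey). The sums are not scaled to library size. In these sums, neighbours of Hormad1, Syce1, Sycp1 and Taf7l moved up with them on 1 side. Both neighbours of Tex11 moved up, Dlg3 only slightly, and both neighbours of Piwil2 moved down. Both neighbours of Slc25a31 moved down slightly in these unscaled sums.

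Other genes of the same pathways are read beside the 75.3% of all tested genes called in the activator induction, 38.2% higher and 37.2% lower. Of 11 other meiosis genes tested 7 rose and 2 fell, with a median log2 change of 0.72 beside 0.0042 for all tested genes. Stag3, the meiotic cohesin subunit, rose by 2.79 (SE 0.305, adjusted p = 1.62e-13), Hormad2 by 2.48, Syce2, the partner of Syce1 in the central element, by 1.84 and Tex14 by 1.62, while Ythdc2 and Prdm9 fell by 0.51 and 0.40. Of the 10 in this list at 0 before induction 3 appeared, Terb2 with 15 counts and Dmc1 and Rad21l with fewer. Of 6 other piRNA genes tested 3 rose and 2 fell (median 1.49). Pld6, the mitochondrial nuclease Zucchini, had 0 counts before and 55 after, at least 23.2-fold higher, Spocd1 rose by 2.96 and the trimming enzyme Pnldc1 by 2.85, while Mybl1 fell by 0.35 and Tdrd7 by 0.21. With mitochondrial scaling the meiosis list split 5 higher to 3 lower and the piRNA list 3 to 3, and the calls of Prdm9 and Tdrd7, but not their sign, depended on the scaling. Genes with few or no counts before induction, such as Pld6, can pass the filter through the induced activator libraries. The shares called higher and the medians of both lists are therefore no support.

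Appearance in the lists of other stages is read beside the 6.72% of all and 9.5% of protein-coding genes that appeared in the activator line. Of 3 other germ cell regulators tested Sohlh2 rose by 4.21 (SE 0.518) and Taf4b fell by 0.78, and 1 of 10 at 0 appeared, Prdm14 with 4 counts. None of 8 spermatid genes at 0 appeared. Of 12 other 2-cell-stage genes at 0 in the uninduced activator line 1 appeared, Gm4340 with 5 counts, and it also appeared in the control line with 3. None of 9 pluripotency genes at 0 appeared, and of 5 tested Tfcp2l1 rose by 0.77 while Klf4 and Lin28a fell by 1.61 and 1.37.

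Genes whose products silence the germline genes were counted in all libraries. Of 27 such genes tested in the activator induction 10 were called higher and 13 lower, beside 38.2% and 37.2% of all tested genes, but the split was 2 to 20 with total-count scaling, 13 to 11 with upper-quartile factors and 0 to 27 with scaling to mitochondrially encoded genes. The median of all genes moved from 0.0042 to -0.22, 0.11 and -0.74 under these scalings. Dnmt3b, a DNA methyltransferase, fell by 1.501, E2f6 by 0.95, Setdb1, an H3K9 methyltransferase, by 0.88, Pcgf6 by 0.77 and Mga by 0.55, each called under every scaling tried. The largest rises were of the histone deacetylases Hdac1 (0.56) and Hdac2 (0.45), which were also called higher with total-count scaling and changed sign with mitochondrial scaling. Dnmt1 and Trim28 were at 0.21 and 0.15 and changed sign with total-count and mitochondrial scaling, and Uhrf1 was at 0.0018 (adjusted p = 0.956). Of 16 repressors of the 2-cell-stage genes 9 were called higher and 6 lower, beside the same shares, with 1 to 10 under total-count scaling and 0 to 16 under mitochondrial scaling.

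Markers of other cell types moved in the same libraries. The 5 endothelial markers summed to 18.5 to 23.4 CPM in induced activator libraries against 0.182 to 0.760 CPM elsewhere, of which Pecam1 had 19 counts before and 1115 after, and 2 of the 5 were at 0. The 8 oocyte markers summed to 1.73 to 2.48 CPM against 0.179 to 0.459 CPM elsewhere, with Gdf9 at 20 and 104 counts and Zp2 and Nlrp5 at 0 in all libraries. Of 4 macrophage markers tested 1 rose, Lyz2 with 1 and 102 counts, and 1 fell, Cd14 by 1.22, and the median log2 change was -0.18. Of 5 Sertoli and Leydig cell markers tested 3 rose, among them Cldn11 with 1 and 54 counts, and 2 fell. The 9 Sertoli and Leydig cell markers together were lower, at 79.9 to 86.2 CPM against 112 to 141 CPM elsewhere. Their part in the germline counts was not tested.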

How the data were processed

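RNA of 18 libraries (6 groups of 3) was read as a table of raw read counts per gene deposited by the authors. The libraries were stranded, rRNA-depleted and sequenced from both ends, per the labels' protocols, and the build was mm10, per the submitters' processing notes. Not given in the sources used here were the aligner, the counting tool, its annotation and its use of strand. Symbols were matched by Ensembl ID to GENCODE M21 (47310 of 47937 IDs; the other 627 held 0.0423% of counts).

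Counts were tested with edgeR 4.0.16 (R 4.3.3), robust quasi-likelihood, TMM scaling, filterByExpr (16216 genes) and 1 coefficient per group (12 residual degrees of freedom), with Benjamini-Hochberg adjustment over all tested genes at 0.05. CPM values use the TMM-scaled library sizes. The standard error is the log2 fold change divided by the square root of F. A group with no count has a floor of 3 counts, and ratios have exact 95% intervals, both for counting error only. A fold against the floor takes the induced counts as exact. Alternatives were other scalings, no filter, DESeq2 1.42.0, limma-voom 3.58.1, the groups of a comparison alone, replicate blocks, other count rules and each library left out. The fit was tested on simulated counts. Replicates differed beyond sampling noise (chi-square per gene 1.36 to 6.35).

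Named in full are genes that passed the filter or had at least 10 counts in a group. The others are given by their counts, and of the other lists up to 4 called genes per direction and a set of known repressors are named. The 31 genes, the lists and the tests were chosen with earlier results of these data known.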

Additional observations from a re-analysis of the deposited data

Results flagged for a closer look

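The change on induction differed between the activator and the control line for 2 genes by the test of the difference itself (edgeR quasi-likelihood, Benjamini-Hochberg adjustment): Piwil2 by 3.76 on the log2 scale (adjusted p = 0.0364) and Tdrd5 by 6.85 (adjusted p = 0.0256). Both were higher after activator induction in 3 of 3 libraries, and the lines differed in induction time, so effector and time cannot be told apart. Both passed the filter only through the induced activator libraries, so these calls are no support. The Piwil2 call was lost in 8 of 28 alternative settings. The Tdrd5 call was lost without the third uninduced control library (edgeR adjusted p = 0.958).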

How the results depend on the processing

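The call of Ddx4 between the uninduced lines held in the 27 alternatives that gave a value. Syce1, Piwil2 and Tdrd5 were called in the activator induction in all 28 run, but since they entered the test only through the group where they are high this is no support. Of the 31 genes, 5 were called in the activator induction, 12 without a filter, 8 with DESeq2 and 4 to 7 with 1 library left out. For the repressor induction the count was 1, 0 with DESeq2 and 0 to 1 with a library left out; for the control induction it was 0 throughout. For the difference of activator and control it was 2, and 4 with total counts, mitochondrial factors or limma-voom, 5 without a filter, 6 with DESeq2 and 2 to 4 with a library left out. For repressor minus control it was 0, and 1 with limma-voom or the groups alone. For the uninduced repressor line it was 0, 1 with the groups alone and 0 to 1 with a library left out. The replicate block within each line gave 1 call for activator minus control and changed no other count, and the block across lines changed none. The replicate numbers did not pair the libraries (correlations of -0.085 to 0.14, with 1 of 9 pairs over 0.1), and the within-line block could not be fitted for the uninduced lines.

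With mitochondrial scaling Tdrkh reversed to -0.19 in the activator induction, where Ddx4 was called at -0.84, and Ddx4 reversed to -0.65 (adjusted p = 0.0324) in activator minus control. Genes appearing numbered 7 in the activator line, 5 with at least 10 counts (without Stk31 and Tdrd9), 9 with any count or with up to 3 uninduced counts allowed, and 7 to 9 with a library left out; the 2-cell-stage gene Zfp352 was among the 9 without the first uninduced library and with up to 3 uninduced counts allowed. In the repressor line they numbered 1, 3 with any count, 0 with at least 10 counts, 4 with up to 3 uninduced counts allowed and 0 to 3 with a library left out. In the control line they numbered 0, 3 with up to 3 uninduced counts allowed and 0 to 1 with a library left out. Genes with no count numbered 4, and 9 had at most 3 counts. Requiring 2 counts lowered the mean number of genes per library to 8.67 in the induced control, 7 and 7.33 in the uninduced and induced repressor, 8.67 in the uninduced activator and 16.7 in the induced activator cells. The cause of these changes was not tested. Depth limits every gene of under 10 counts to the counts themselves.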
